A study of Aspergillus niger with 24 samples.

Results

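The 169 most abundant transcripts of Aspergillus niger hyphae are described here, in a wild-type strain (WT) and in a strain expressing the lipase TLL. Abundance was measured in TPM, the length-corrected transcript abundance scaled so that every library sums to the same total, so that a gene's TPM is its share of the library. A gene was a member if its arithmetic mean over all 24 libraries reached 1000 TPM. Of 11846 genes in the table, 169 (1.43%) qualified. A single ID, NRRL3_08300, was barred in advance, but its mean was 24.0 TPM and its highest library 73.5 TPM, so the bar removed no gene. Since these same values chose the members, their abundance is a description and supports nothing by itself.

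Both strains carried the strain name CICC2629, one labelled as wild type and the other as expressing TLL. Both grew as hyphae on potato dextrose agar plates kept at 28 °C, and total RNA was sequenced from labelled days 1, 2, 3 and 4, with 3 libraries for each strain and day. The promoter and copy number of the TLL construct, the number of transformants behind the strain, and the hour of sampling behind each day label were not given in the sources used here. Whether replicates were separate cultures is not labelled. The p-values therefore reflect the spread among these libraries alone, and that spread may be technical. No gene ID could be paired with a name, so genes are given by ID, without roles, and neither the lipase transcript nor hyphal marker genes were examined.

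The abundant end of a growing fungal transcriptome is usually filled by genes for ribosomal proteins, translation factors, histones and glycolytic enzymes. Filamentous fungi such as Aspergillus niger add secreted enzymes and small secreted or cell-wall proteins, whose transcripts can be very abundant and depend on growth stage and nutrient supply. Because TPM is a share, a rise of one abundant transcript lowers the TPM of every other gene in that library even where their RNA amount is constant. In RNA from whole hyphae, fewer cells of a kind and less RNA per cell cannot be told apart.

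Member means ran from 1003 to 62412 TPM with a median of 1747 TPM. Means were over 10000 TPM in 3 members, between 2000 and 10000 TPM in 62, and under 2000 TPM in 104. Just inside the limit lay NRRL3_10215 (1006 TPM) and NRRL3_00868 (1003 TPM), and just outside it NRRL3_08160 (995 TPM) and NRRL3_05769 (978 TPM). Without its highest group, 143 members still averaged at least 1000 TPM and 26 did not. Group means were at least 1000 TPM in all 8 groups of strain and day for 59 members (34.9%), and 36 members reached 1000 TPM in every library. No member was listed at 0 in any library, and all 169 passed the filter of at least 1 TPM in at least 3 libraries that left 9558 genes for testing.

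The depth of the libraries is unknown, since TPM carries no counts. The libraries held 7918 to 8935 genes at 1 TPM or more. Over the members, replicates of a group correlated at Pearson r 0.992 to 0.996 in WT on day 3 and at 0.984 to 0.995 in TLL on day 4 (log2 TPM, 169 genes), but at 0.866 to 0.982 in WT on day 2, and at 0.843 to 0.991 in WT and 0.738 to 0.983 in TLL on day 1. The low values of day 1 came from WT day 1 replicate 1 and TLL day 1 replicate 3, which lay apart from the other libraries of their groups. All groups were fitted together and share one estimate of spread per gene, so this pair bears on every test. Counts without both libraries are given with each comparison. The pair was picked from these same values for lying apart, so leaving it out tends to lower the estimated spread and the p-values. Percentages of all genes called are from the fit with all libraries, so counts of members from other fits have no such share beside them. With both left out, 165 of the 169 members still reached 1000 TPM, as did 1 further gene.

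The members together took between 39.1% and 49.97% of all TPM, by group mean. In WT their share was 47.4% ± 1.14 (SD, n = 3 for this and each other group) on day 1, 45.3% ± 1.83 on day 2, 49.97% ± 0.653 on day 3 and 45.8% ± 1.39 on day 4. In TLL it was 49.8% ± 5.42, 39.1% ± 1.89, 42.9% ± 1.23 and 46.8% ± 1.13 on the same days. The summed share was thus highest on day 3 in WT and on day 1 in TLL, and the large SD in TLL on day 1 came from libraries at 53.9%, 51.8% and 43.7%.

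On day 2 the 3 TLL libraries (41.3%, 38.2% and 37.8%) all lay below the 3 WT libraries (43.7%, 44.9% and 47.3%). The same separation held on day 3, with TLL at 44.3%, 42.5% and 42.0% and WT at 50.1%, 50.5% and 49.3%. The groups overlapped on days 1 and 4. These sums run over genes chosen for their level in the same libraries and were not tested.

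A single gene, NRRL3_01765, accounted for much of the late share. Its libraries held 21669, 4777 and 4844 TPM in WT on day 1, then 35652, 34510 and 26447 TPM on day 2, 128907, 126073 and 114969 TPM on day 3, and 136520, 108694 and 120912 TPM on day 4. In TLL they held 2104, 2937 and 11502 TPM, then 21013, 26174 and 25088 TPM, then 55394, 52857 and 50867 TPM, and on day 4 they held 128919, 126567 and 130485 TPM. The WT libraries reached their plateau on day 3, whereas the TLL libraries lay below all WT libraries on days 2 and 3 and overlapped them on day 4. WT day 4 replicate 1, at 13.7% of its TPM, was the highest value of any gene in any library.

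On log2(TPM + 1), NRRL3_01765 changed across days in both strains (limma, adjusted p = 1.43e-06 in WT and 2.53e-07 in TLL). In WT it rose by 2.01 from day 1 to day 2 (SE 0.50, limma adjusted p = 0.00381) and by 1.95 from day 2 to day 3 (adjusted p = 0.00288), and differed by -0.02 from day 3 to day 4 (adjusted p = 0.978). In TLL it rose by 2.53 to day 2 (limma adjusted p = 0.000276), differed by 1.14 at the step to day 3 (adjusted p = 0.128), and rose by 1.28 to day 4 (adjusted p = 0.0420). Without WT day 1 replicate 1 and TLL day 1 replicate 3, the steps to day 2 were 2.73 in WT and 3.27 in TLL, and the TLL step to day 3 passed (limma, adjusted p = 9.12e-06).

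Between strains, the day 3 difference of NRRL3_01765 was -1.22 (SE 0.50, limma adjusted p = 0.0529), and no strain difference passed the test on any day, nor did the interaction of strain and day (adjusted p = 0.347). Without the same pair of libraries the adjusted p was 0.000582 on day 1, 0.0427 on day 2, 7.97e-07 on day 3, 0.645 on day 4 and 8.30e-05 for the interaction. Whether the strain difference of NRRL3_01765 passed thus depended on those libraries. On days 2 and 3, to which those libraries do not belong, its 3 TLL values lay below the 3 WT values. The nearest on day 2 were 26174 TPM in TLL and 26447 TPM in WT.

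The other 168 members lost share with time. They held 46.3% ± 0.650, 42.1% ± 2.32, 37.6% ± 0.364 and 33.6% ± 1.82 of TPM in WT on days 1 to 4, and 49.2% ± 5.94, 36.7% ± 2.15, 37.6% ± 1.01 and 33.9% ± 1.07 in TLL. Counted against the TPM left when NRRL3_01765 is taken out, they held 46.8%, 43.5%, 42.9% and 38.3% in WT and 49.5%, 37.6%, 39.7% and 38.9% in TLL. The decline was smaller on that basis, and in TLL it ended at day 2. The strain difference in the summed share on day 3, -7.07 percentage points, consisted of -7.03 points for NRRL3_01765 and a net -0.0459 points for all other members, whose differences summed to 9.17 points upward and -9.22 points downward. The near-zero net holds for the TPM total only. Against the TPM left without NRRL3_01765, the other members held 42.7% to 43.4% in the WT libraries of day 3 and 38.8% to 41.0% in those of TLL.

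NRRL3_06779 had the second highest mean. Its WT libraries held 25597, 16655 and 11749 TPM on day 1, 29628, 33492 and 42490 TPM on day 2, 37306, 44412 and 38062 TPM on day 3, and 18534, 29988 and 15914 TPM on day 4. In TLL they held 2947, 5510 and 17926 TPM, then 20230, 12908 and 9395 TPM, then 39851, 24756 and 21106 TPM, and 38981, 31176 and 33643 TPM on day 4. The TLL libraries were all lower than WT on day 2 and all higher on day 4, and replicates differed widely.

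For NRRL3_06779 the log2 strain difference was -1.37 on day 2 (SE 0.47, limma adjusted p = 0.0681) and 0.74 on day 4 (adjusted p = 0.195), neither past the threshold. The strain difference did depend on the day (limma, adjusted p = 0.0256), and levels changed across days in TLL (adjusted p = 0.000464) but did not pass in WT (adjusted p = 0.0623). These missing calls depended on whether the day 1 libraries that lay apart were kept. Without that pair, NRRL3_06779 passed the test between strains on day 1 (limma, adjusted p = 0.00103), day 2 (0.00273) and day 4 (0.0359). It also passed across days in WT (0.000925).

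NRRL3_02505, NRRL3_02026 and NRRL3_07533 were highest on day 1 in both strains. NRRL3_02505 held 16838, 28856 and 25418 TPM in WT on day 1 and 9631, 11460 and 14032 TPM on day 2, and in TLL 35738, 32240 and 17827 TPM and then 11929, 8817 and 9408 TPM. All day 1 libraries lay above all day 2 libraries of the same strain, for each of these 3 genes. The log2 changes were -0.9983 in WT and -1.46 in TLL for NRRL3_02505, -0.95 and -1.47 for NRRL3_02026, and -0.94 and -1.54 for NRRL3_07533 (limma, adjusted p from 3.29e-05 to 0.00679). The interaction did not pass for any of them with all libraries (limma, adjusted p = 0.136, 0.287 and 0.411). It passed for all 3 without the day 1 libraries that lay apart (limma, adjusted p = 0.00305, 0.00737 and 0.00602). NRRL3_10560, the eighth highest, also fell from day 1 to day 2, with log2 changes of -0.76 in WT and -0.51 in TLL (limma, adjusted p = 0.00113 and 0.0142).

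NRRL3_04517, NRRL3_00524, NRRL3_11276 and NRRL3_09214 shared a trough in WT day 3 and TLL day 4. NRRL3_00524 held 10978, 9914 and 9372 TPM in WT on day 2, 1274, 1325 and 1269 TPM on day 3, and 8566, 10118 and 9309 TPM on day 4. In TLL it held 12376, 12952 and 10788 TPM on day 2, 10090, 10830 and 10957 TPM on day 3, and 1972, 2194 and 2164 TPM on day 4. The low libraries were separated from all day 2 libraries and from the other strain on the same day. In TLL, the day 1 libraries of NRRL3_00524 (2042, 2833 and 4078 TPM) overlapped those of day 4. NRRL3_00524 fell from rank 6 on day 2 to rank 109 on day 3 in WT, and from rank 3 on day 3 to rank 50 on day 4 in TLL.

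The log2 differences of TLL from WT on day 3 were 1.74 for NRRL3_04517, 3.04 for NRRL3_00524, 2.27 for NRRL3_11276 and 1.43 for NRRL3_09214 (limma, adjusted p from 8.57e-11 to 1.92e-08). On day 4 they were -1.65, -2.14, -1.59 and -1.50 in the same order (limma, adjusted p from 1.02e-08 to 3.60e-07). All 4 genes were thus higher in TLL on day 3 and lower in TLL on day 4, with no overlap between the strains' libraries on either day.

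**Figure D1:**
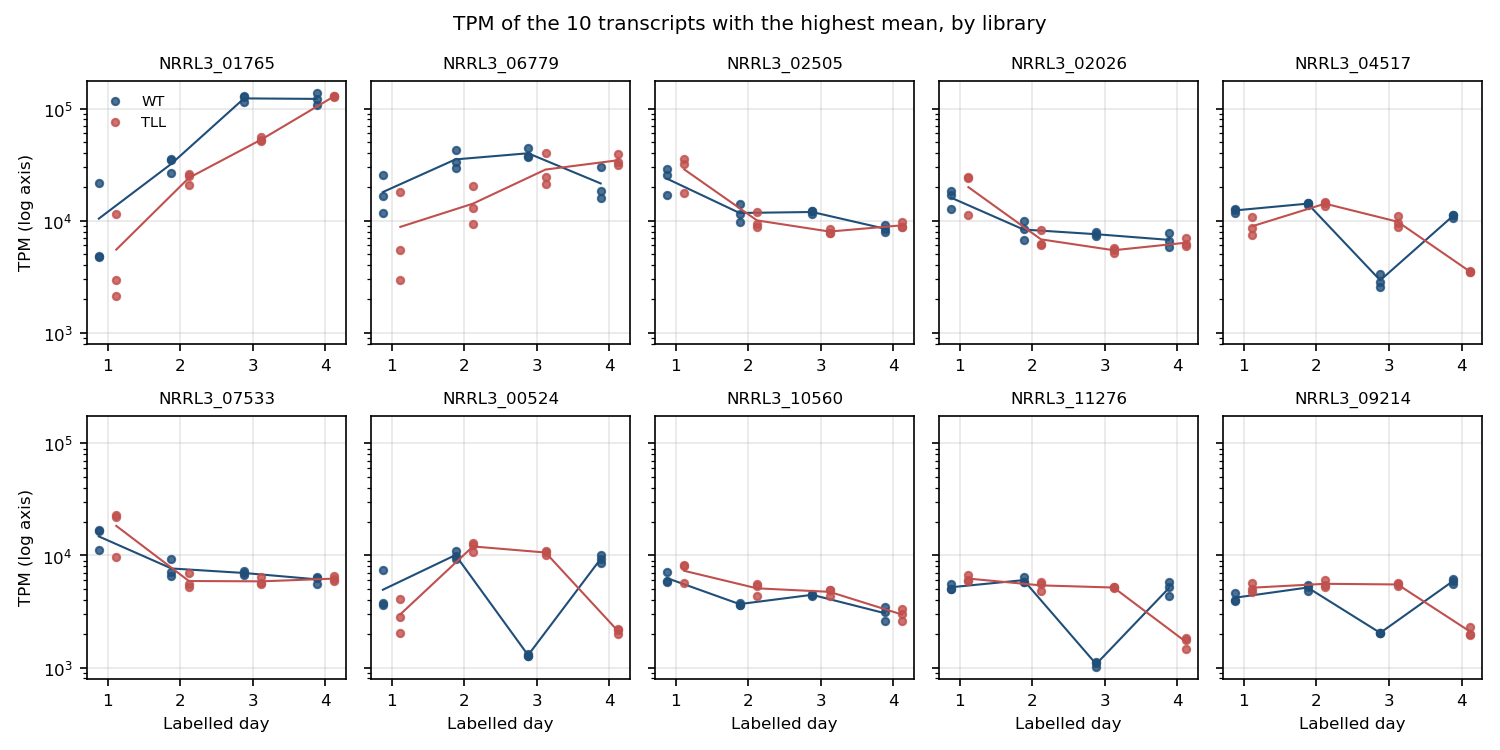
TPM on a log axis of the 10 members with the highest means, by labelled day, with points for libraries and lines through group means in WT and TLL. The dip of NRRL3_00524 to a mean of 1289 TPM on day 3 in WT and of 2110 TPM on day 4 in TLL recurs, at other levels, in NRRL3_04517, NRRL3_11276 and NRRL3_09214.

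The members were grouped by which of the 8 groups held their 2 highest means. These classes were read from the same values and are descriptions. In 78 members (46.2%, against 15.7% of all genes tested) both day 1 groups were highest. In 18 members (10.7%, against 11.6%), WT day 3 and TLL day 4 were highest, and the remaining 73 (43.2%, against 72.7%) had other pairs. Without both day 1 libraries that lay apart the classes held 75, 18 and 76 members, and 166 members kept their class.

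The day 1 class took 28.2% ± 4.49 of TPM in WT on day 1, and then 16.4% ± 3.21, 12.6% ± 0.106 and 10.8% ± 0.431 on days 2 to 4. In TLL it took 35.9% ± 11.5, then 12.9% ± 1.25, 11.1% ± 0.0190 and 9.44% ± 0.832. The libraries that lay apart were low on day 1: WT replicate 1 held 23.1% against 30.6% and 31.0%, and TLL replicate 3 held 22.7% against 44.0% and 41.1%. Even so, every day 1 library exceeded every day 2 library of its strain.

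The class highest in WT day 3 and TLL day 4, which includes NRRL3_01765, took 3.65% ± 2.75, 6.10% ± 1.06, 19.7% ± 0.720 and 14.2% ± 1.33 of TPM in WT, and 2.70% ± 2.72, 4.81% ± 0.439, 9.05% ± 0.151 and 21.0% ± 1.26 in TLL. On day 1 it stood at 6.82% in WT replicate 1 and 5.83% in TLL replicate 3, against 0.90% to 2.12% in the other day 1 libraries. The remaining 73 members took 15.5% ± 2.79, 22.8% ± 0.326, 17.7% ± 0.224 and 20.7% ± 1.41 in WT and 11.2% ± 3.43, 21.4% ± 1.15, 22.7% ± 1.34 and 16.3% ± 0.510 in TLL. Over days 2 to 4 they stood lowest where the former class stood highest, on day 3 in WT and on day 4 in TLL.

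**Figure D2:**
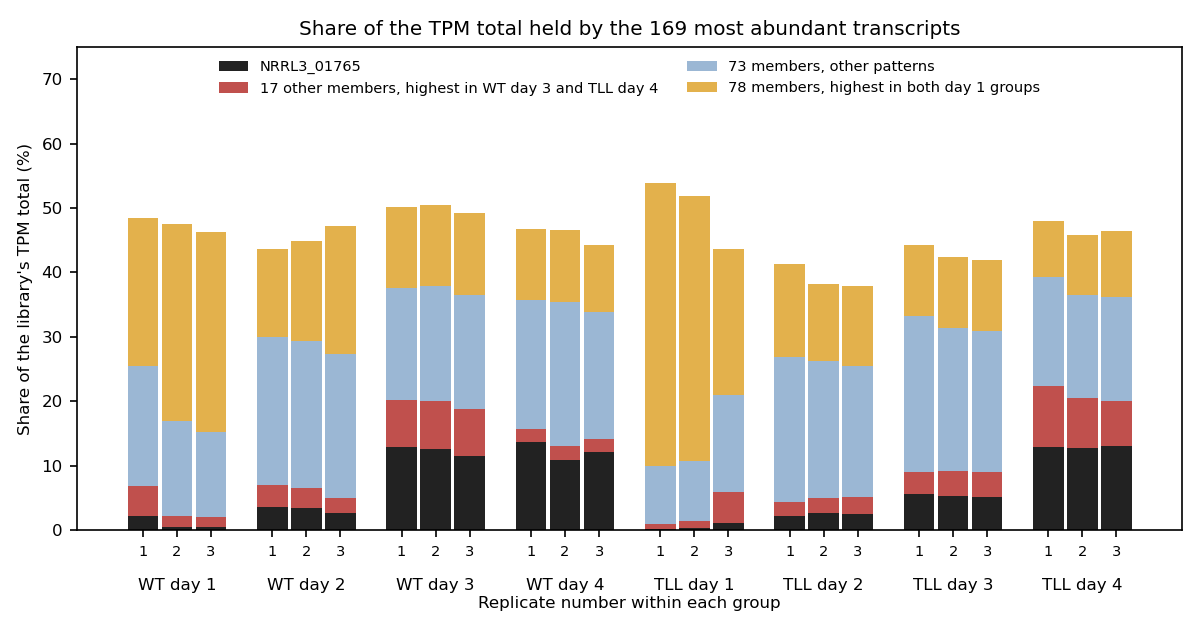
Share of each library's TPM total in percent (stacked bars, 1 per library, by strain and day) held by NRRL3_01765, the other members highest in WT day 3 and TLL day 4, the 73 members of other patterns and the 78 members highest on day 1. The day 1 class is widest on day 1, at 28.2% in WT and 35.9% in TLL by group mean, and NRRL3_01765 reaches 12.2% in WT and 12.9% in TLL on day 4.

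Single members ranged more widely than the sums. The ratio of the highest to the lowest group mean had a median of 4.45, was under 2 in 19 members, between 2 and 10 in 120 and over 10 in 30. TLL day 1 was the highest group for 71 members (42.0%, against 14.8% of all genes tested) and WT day 1 for 17 (10.1%, against 11.7%). TLL day 4 was the lowest group for 75 members (44.4%, against 16.9% of all genes tested) and WT day 3 for 22 (13.0%, against 22.6%).

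**Figure D3:**
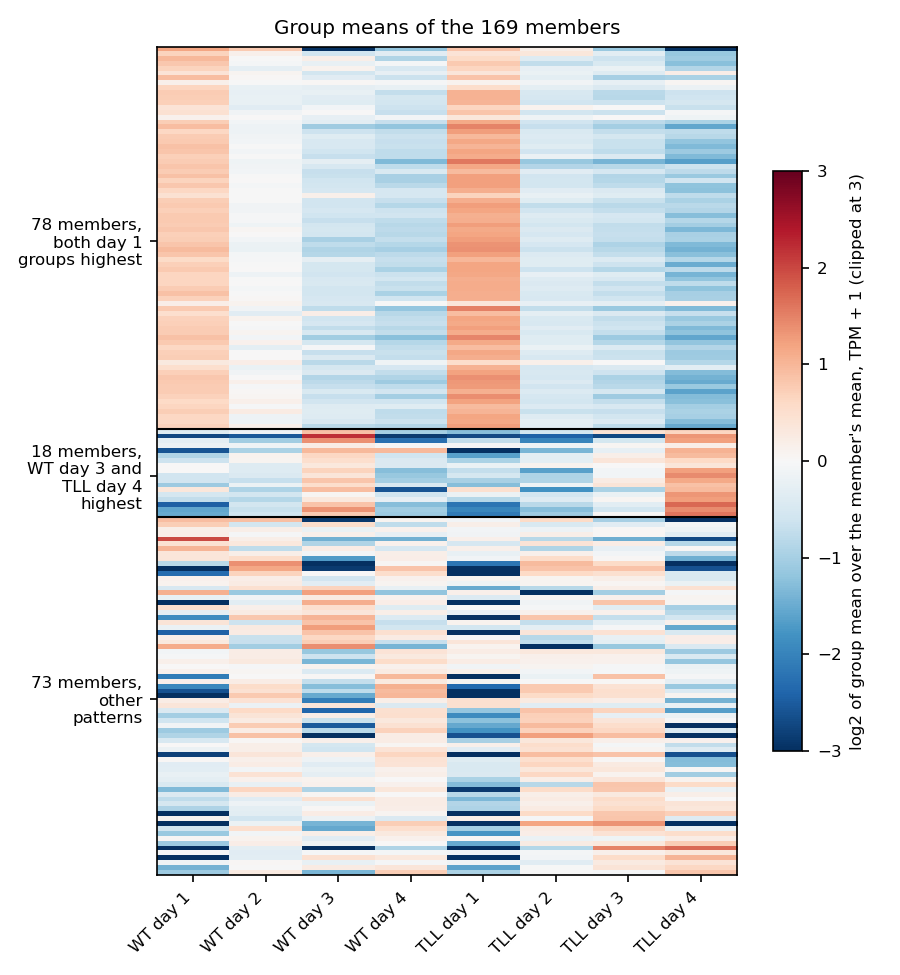
Group means of the 169 members as log2 of the group mean over the member's own mean (TPM + 1, colour clipped at 3), with members in rows ordered by class and the 8 groups in columns. The upper block of 78 members is high in both day 1 columns, and the block of 18 members is high in WT day 3 and TLL day 4.

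The 10 highest genes of each group made up 31 different genes, all of them members, and 16 of the 31 were in the list of a single group. NRRL3_02505 and NRRL3_06779 were in all 8 lists. On day 1 NRRL3_02505 led by group mean in both strains, at 23704 ± 6190 TPM in WT and 28602 ± 9493 TPM in TLL, although NRRL3_06779 led in WT replicate 1 and TLL replicate 3. On day 2 NRRL3_06779 led in WT at 35204 ± 6600 TPM, with NRRL3_01765 ahead in replicates 1 and 2, and NRRL3_01765 led in TLL. From day 3 on NRRL3_01765 led in both strains.

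The lists of WT day 3 and TLL day 4 shared 7 of 10 genes, and those of WT day 4 and TLL day 3 shared 6. WT day 4 shared 7 with TLL day 2 and 7 with WT day 2. By day, the strains shared 7 on day 1, 8 on day 2, 4 on day 3 and 5 on day 4. Over all 169 members the Pearson correlation of log2 group means was 0.80 for WT day 3 with TLL day 4 and reached 0.92 for WT day 4 with TLL day 3. WT day 4 was nearly as like TLL day 2, with a correlation of 0.90, and correlated at 0.87 with WT day 2. Between the strains within a day the correlation was 0.96 on day 1, 0.90 on day 2, 0.48 on day 3 and 0.49 on day 4. These correlations are descriptions over genes, which are not independent replicates.

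The number of genes that held 25% of the TPM was smallest in WT day 3 and TLL day 4, on average 14.0 and 16.0 genes. The same share took 38.0, 38.0 and 20.7 genes in WT on days 1, 2 and 4, and 34.7, 53.0 and 36.3 in TLL on days 1 to 3. At 50% of the TPM the order differed, with 136 ± 56.9 genes in TLL on day 1, 144 ± 5.57 in WT on day 3, 165 ± 10.5 in WT on day 1 and 168 ± 19.2 in TLL on day 4. Members with at least 1000 TPM numbered 135, 150, 120 and 120 per library in WT on days 1 to 4 and 123, 132, 129 and 96.7 in TLL.

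From day 1 to day 2 in WT, 35 members rose and 76 fell (limma, adjusted p under 0.05 over all 9558 genes), against 34.5% of all genes in either direction (22.9% rose and 11.6% fell). Members that gained share gained 12.1 percentage points in sum, and the sum over those that lost share was -14.2 points. NRRL3_00134 went from 5.47, 2.54 and 1.52 TPM to 2070, 1796 and 1478 TPM, a log2 rise of 8.84 (SE 0.29, limma adjusted p = 6.75e-15). NRRL3_11759 rose by 7.63 (SE 0.38, limma adjusted p = 2.58e-12), from 7.85 ± 6.29 to 1516 ± 246 TPM. These are the members with the widest range over the 8 groups, with ratios of 1002 and 847.

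At that step in WT, NRRL3_10695 and NRRL3_10215 fell most among called members without overlap, with log2 changes of -2.20 and -2.16 (limma, adjusted p = 0.000995 and 0.00214). NRRL3_10695 stood at 7818, 6469 and 5597 TPM on day 1 and 1225, 1799 and 1332 TPM on day 2. In the fit lacking both day 1 libraries that lay apart, 55 members rose and 82 fell. Quantile normalization changed the split to 46 higher and 50 lower, with the median of all genes at -0.13 in place of 0.07.

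From day 1 to day 2 in TLL, 50 members rose and 81 fell, against 38.4% and 13.6% of all genes and 52.0% in either direction. This step carried the greatest exchange of share of the 6 steps, with 13.9 points gained and -24.6 points summed over the losses, of which NRRL3_02505 had the largest at -1.86 points. NRRL3_00134 rose by 9.09 (SE 0.29, limma adjusted p = 2.10e-15) from 0.88, 1.44 and 3.90 TPM to 1791, 1450 and 1403 TPM, and NRRL3_11759 rose by 7.22 (adjusted p = 2.83e-12).

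NRRL3_10695 and NRRL3_10215 fell in TLL at that step, with log2 changes of -3.43 and -3.28 (limma, adjusted p = 3.72e-06 and 1.58e-05). TLL day 1 replicate 3 stood out in both, with 7485 TPM for NRRL3_10695 against 1312 and 1701 TPM, and without it the changes were -2.65 for NRRL3_10695 and -2.42 for NRRL3_10215. Leaving out both day 1 libraries that lay apart gave 66 members that rose and 86 that fell. In both strains alike, 34 members rose (20.1%, against 21.3% of all genes tested) and 73 fell (43.2%, against 6.68%), and 0 moved in opposite directions past the threshold.

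At the step to day 3 in WT, 20 members rose and 66 fell, against 20.2% and 33.5% of all genes and 53.6% in either direction. Of the 17.4 points gained, 9.11 belonged to NRRL3_01765, and the losses summed to -12.8 points. NRRL3_01699 rose from 704, 665 and 578 TPM to 17427, 17540 and 16621 TPM, becoming the third highest gene (log2 rise 4.73, SE 0.37, limma adjusted p = 3.62e-09).

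NRRL3_10754 rose by 2.47 in WT at the same step (SE 0.69, limma adjusted p = 0.00558), from 858, 728 and 451 TPM to 3546, 3661 and 3673 TPM. NRRL3_00669 fell from 4979, 4319 and 2967 TPM to 36.3, 39.8 and 31.1 TPM, and from rank 20 to rank 3176 (log2 change -6.77, SE 0.43, limma adjusted p = 1.34e-10). NRRL3_04926 changed by -4.63 (SE 0.60, limma adjusted p = 2.84e-06), from 11017 ± 1519 to 452 ± 124 TPM. Absence of overlap between the days was a condition for naming the 4 genes. In WT the split was 30 up and 32 down after median-of-ratios scaling, the median of all genes moving from -0.17 to -0.01, and without both day 1 libraries that lay apart 39 rose and 95 fell.

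In TLL the step to day 3 was the quietest, with 9 members higher and 9 lower, against 4.69% and 13.2% of all genes and 17.9% in either direction. NRRL3_10695 rose by 2.72 and NRRL3_10215 by 2.57 (limma, adjusted p = 0.000376 and 0.00124), from 137, 79.3 and 40.0 TPM to 505, 444 and 423 TPM for the latter. NRRL3_02109 and NRRL3_03106 fell, with log2 changes of -1.56 and -1.54 (limma, adjusted p = 9.71e-06 and 0.000905), the former from 2998, 2698 and 2342 TPM to 944, 860 and 913 TPM. These genes too were picked from called members without overlap between the days.

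The 18 calls of that step covered 1.57 of the 8.25 points gained and -1.64 of the -4.47 points lost. NRRL3_01765 gained 2.89 points. Its change did not pass the test with all libraries and passed without the day 1 libraries that lay apart. Under median-of-ratios scaling 15 rose and 6 fell, the median of all genes moving from -0.16 to -0.02. Without TLL day 1 replicate 3 there were 30 calls in place of 18, and without it and WT day 1 replicate 1 there were 50, 26 higher and 24 lower. Both strains' steps to day 3 shared 4 members that rose (2.37%, against 2.58% of all genes tested) and 6 that fell (3.55%, against 8.98%), while 1 fell in WT and rose in TLL.

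**Figure D4:**
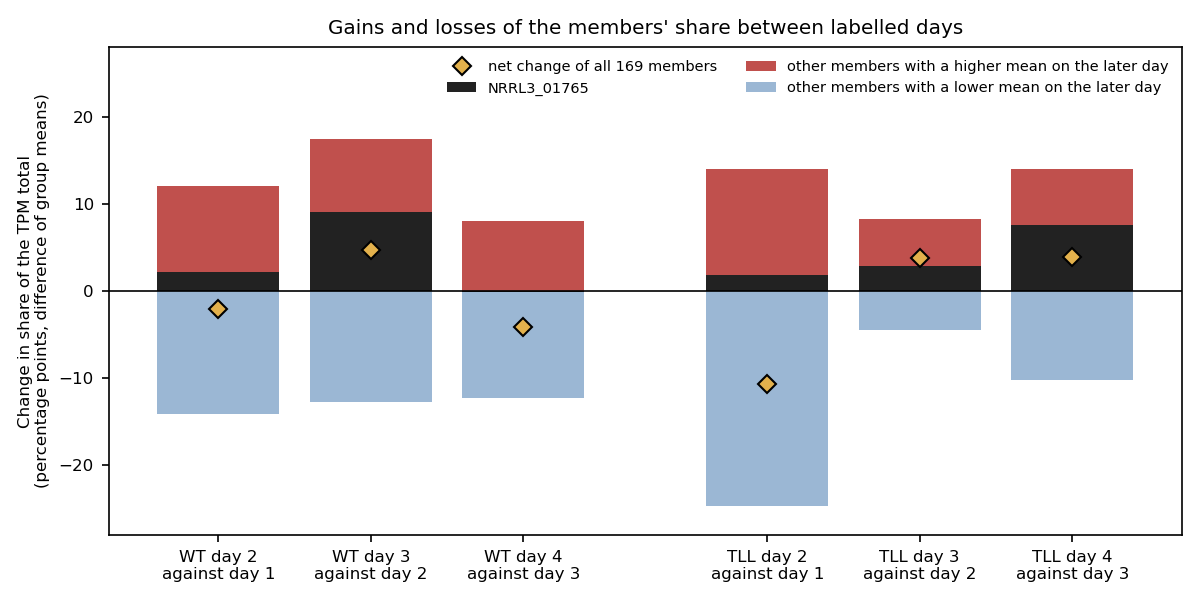
Percentage points of TPM gained (above 0) and lost (below 0) by members at each step between days in WT and TLL, with NRRL3_01765 in black, the other members in red and blue and the net change as diamonds. NRRL3_01765 gains 9.11 points at the WT step to day 3 and 7.56 points at the TLL step to day 4.

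At the step to day 4 in WT, 36 members rose and 29 fell, against 32.9% and 20.4% of all genes and 53.4% in either direction, and in TLL 11 rose and 57 fell, against 21.7% and 25.7%, or 47.4% in either direction. The tests found 27 members that rose in WT and fell in TLL (16.0%, against 16.1% of all genes tested), and 6 that fell in WT and rose in TLL (3.55%, against 8.44%). There were 2 that rose in both strains (1.18%, against 2.62%) and 4 that fell in both (2.37%, against 2.31%). With both day 1 libraries that lay apart left out, 43 rose and 50 fell in WT, and 27 rose and 85 fell in TLL. Under median-of-ratios scaling, 32 rose and 35 fell in WT.

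NRRL3_00669 rose in WT from 36.3, 39.8 and 31.1 TPM to 3156, 2134 and 2439 TPM (log2 6.12, SE 0.43, limma adjusted p = 7.04e-10). In TLL it fell from 4659, 4057 and 4020 TPM to 48.7, 55.5 and 57.4 TPM (log2 -6.27, SE 0.43, limma adjusted p = 9.05e-10). NRRL3_01699 did the opposite, with a log2 change of -5.07 in WT to 507, 462 and 567 TPM and of 4.04 in TLL from 565, 613 and 528 TPM to 11873, 8841 and 7710 TPM (limma, adjusted p = 1.46e-09 and 6.16e-08). Both genes were picked among members whose day 3 and day 4 libraries did not overlap.

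Among the other largest changes in WT at that step, NRRL3_02891 rose by 3.74 to 3289, 3145 and 3199 TPM and NRRL3_10754 changed by -3.65 to 244, 353 and 274 TPM (limma, adjusted p = 9.39e-10 and 0.000190). In TLL, NRRL3_09252 rose by 2.05 to 4587, 3620 and 3134 TPM and NRRL3_04926 changed by -5.48 to 159, 135 and 130 TPM (limma, adjusted p = 0.000912 and 5.64e-07). All 4 were likewise picked among members without overlap between the days. NRRL3_01765 gained 7.56 of the 14.0 points gained by members in TLL, and in WT, where its own change was -0.127 points, NRRL3_06779 had the largest loss, -1.84 points.

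Between the strains on day 1, 0 members were higher in TLL and 16 were lower, against 1.76% and 5.56% of all genes and 7.31% in either direction. With no adjustment, 51 of the 169 passed 0.05, a count with no share of all genes beside it. NRRL3_00669 held 1245, 1194 and 1136 TPM in WT and 114, 168 and 808 TPM in TLL, a log2 difference of -2.25 (SE 0.43, limma adjusted p = 0.00355). NRRL3_11735 held 138, 282 and 197 TPM in WT and 55.8, 58.3 and 60.9 TPM in TLL, a difference of -1.74 (SE 0.18, limma adjusted p = 5.38e-06).

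In both genes the TLL libraries were below every WT library, as the choice of named members required. TLL replicate 3 was nearest to WT in NRRL3_00669, whose difference was -3.09 without it. The day 1 count depended on single libraries. Without TLL day 1 replicate 3 there were 113 calls, and without it and WT day 1 replicate 1 there were 103, of which 53 were higher and 50 lower in TLL. These are counts of members, with no share of all genes from the same fits beside them. In a fit of the day 1 libraries alone there were 0 calls by limma, with 13 at an unadjusted p under 0.05.

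On day 2, 2 members were higher and 3 lower in TLL, against 8.22% and 1.49% of all genes and 9.71% in either direction. NRRL3_07606 held 988, 934 and 1033 TPM in WT and 3182, 2540 and 1883 TPM in TLL (log2 1.33, SE 0.31, limma adjusted p = 0.0107). NRRL3_11735 held 1977, 1918 and 1597 TPM in WT and 2911, 2680 and 2598 TPM in TLL (log2 0.58, SE 0.18, limma adjusted p = 0.0438). Both were named as higher in all TLL libraries, and NRRL3_11735 had been named on day 1 as lower in all of them.

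Among the members lower in TLL on day 2, NRRL3_10215 held 425, 608 and 427 TPM in WT and 137, 79.3 and 40.0 TPM in TLL (log2 -2.64, SE 0.50, limma adjusted p = 0.00293). NRRL3_10695 differed by -2.59 (SE 0.47, limma adjusted p = 0.00199), from 1452 ± 305 TPM in WT to 251 ± 97.0 TPM in TLL. Both genes were picked from members whose libraries did not overlap between the strains. Beyond the calls, 123 of 169 members had a lower mean in TLL, these differences summing to -8.65 points, of which NRRL3_06779 gave -2.10. The share of all genes with a lower mean in TLL was not computed.

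The day 2 count of 5 rose to 33 without TLL day 1 replicate 3, to 15 without WT day 1 replicate 1, to 11 without TLL day 2 replicate 1 and to 9 without WT day 2 replicate 1. It was 3 without WT day 2 replicate 2, WT day 2 replicate 3 or TLL day 2 replicate 2. It was 75, 17 higher and 58 lower, in the fit lacking both day 1 libraries that lay apart. The split was 8 higher and 4 lower with quantile normalization and 1 higher and 4 lower with median-of-ratios scaling, the latter moving the median of all genes from 0.19 to 0.02. The call of NRRL3_11735 on day 2 was lost under 21 alternatives, with a limma adjusted p of up to 0.212 when single libraries were left out.

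On day 3, 37 members were higher and 18 lower in TLL, against 32.2% and 14.9% of all genes and 47.1% in either direction. The members' median log2 difference was -0.09, against 0.19 for all genes tested. NRRL3_00669 held 36.3, 39.8 and 31.1 TPM in WT and 4659, 4057 and 4020 TPM in TLL (log2 6.86, SE 0.43, limma adjusted p = 1.41e-10). NRRL3_11759 held 73.2, 82.8 and 69.0 TPM in WT and 5796, 4883 and 5005 TPM in TLL (log2 6.10, SE 0.38, limma adjusted p = 1.08e-10).

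In the other direction on day 3, NRRL3_01699 differed by -4.92 (SE 0.37, limma adjusted p = 2.55e-09) and NRRL3_10215 by -2.52 (SE 0.50, limma adjusted p = 0.000366). NRRL3_10215 held 2662, 2343 and 2875 TPM in WT and 505, 444 and 423 TPM in TLL. The 4 genes were picked among members without overlap between the strains. Scaled by median of ratios, 29 were higher and 27 lower, moving the median of all genes from 0.19 to -0.01. With both of the day 1 libraries that lay apart removed, 46 were higher and 33 lower.

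On day 4, 22 members were higher and 55 lower in TLL, against 27.3% and 26.8% of all genes and 54.1% in either direction. NRRL3_01699 was higher by 4.19 (SE 0.37, limma adjusted p = 2.27e-08) and NRRL3_06518 by 3.53 (SE 0.94, limma adjusted p = 0.00367). NRRL3_06518 held 348, 386 and 366 TPM in WT and 5145, 4210 and 3563 TPM in TLL.

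NRRL3_00669 and NRRL3_04926 were lower in TLL on day 4 (limma, log2 differences of -5.54 and -4.94, SE 0.43 and 0.60, adjusted p = 3.24e-09 and 1.44e-06). NRRL3_04926 held 4394, 5170 and 3655 TPM in WT and 159, 135 and 130 TPM in TLL. Lack of overlap between the strains was again a condition for naming these 4 genes. The net difference in the members' share was 0.950 points, made of 10.3 points from members with a higher mean and -9.31 points from members with a lower mean. Without both day 1 libraries that lay apart, 34 were higher and 78 lower.

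**Figure D5:**
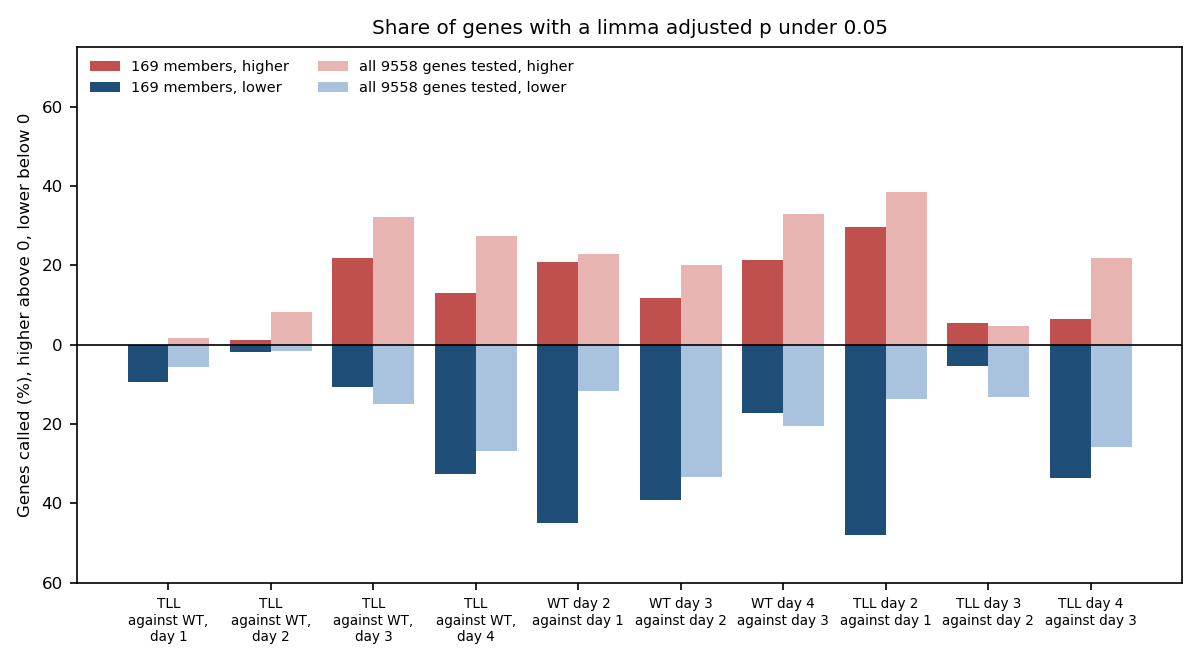
Percent of members and of all genes tested that passed the test (limma, adjusted p under 0.05) higher and lower in each comparison of strains and of consecutive days. At both steps to day 2 the percentage lower among members exceeds that among all genes most clearly, as it also does, by less, on days 1, 2 and 4 and at the WT step to day 3 and the TLL step to day 4.

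The strain difference depended on the day (interaction with 3 degrees of freedom) in 89 of 169 members, against 63.1% of all genes tested. From day 3 to day 4 a called strain difference changed sign from positive to negative in 28 members (16.6%, against 16.3% of all genes tested) and from negative to positive in 9 (5.33%, against 7.01%). Called differences kept their sign in 3 members, of which 2 were higher each time (1.18%, against 3.12%) and 1 was lower (0.592%, against 1.83%). The libraries of the 2 days are separate, so these contrasts share no sample. The interaction count was 154 without TLL day 1 replicate 3 and 163 without both day 1 libraries that lay apart. The share of all genes in those fits is not given here, so 63.1% is no reference for them.

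Called changes across the 4 days were found in 150 members in WT (77.2% of all genes) and 155 in TLL (80.8%). They passed in both strains for 143 members (84.6%, against 67.2% of all genes tested) and in neither for 7 (4.14%, against 9.23%). With all libraries, strain differences were called on at least 1 day for 95 members (56.2%, against 75.9%) and on none for 74. Members were also set against genes with means of 100 to 1000 TPM, in the fit with all libraries only. Between strains and at consecutive days, the percentage called was lower among members in every comparison except the steps from day 1 to day 2. On day 3 these were 32.5% of members and 57.0% of the 1369 less abundant genes, and on day 4 45.6% and 64.1%, while at the steps from day 1 to day 2 they were 65.7% and 38.6% in WT and 77.5% and 57.6% in TLL. When members were instead chosen only on libraries outside the groups compared, 53 of 171 were called on day 3, 79 of 172 on day 4, 105 of 162 at the WT step to day 2 and 122 of 160 at the TLL step to day 2. All genes tested stood at 47.1%, 54.1%, 34.5% and 52.0% in the same order.

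The steadiest members were NRRL3_11021 and NRRL3_11247, with highest-to-lowest ratios of 1.25 and 1.31. Group means of NRRL3_11021 ran from 1698 ± 67.8 TPM in TLL on day 4 to 2125 ± 133 TPM in WT on day 4. On day 4 it was lower in TLL (log2 difference -0.32, limma adjusted p = 0.0161). NRRL3_11247 ran from 1429 ± 115 TPM in WT on day 3 to 1868 ± 128 TPM in WT on day 1. With all libraries, neither gene passed the test across days in either strain (limma, adjusted p from 0.0629 to 0.547), although NRRL3_11247 changed by -0.37 from day 2 to day 3 in WT (limma, adjusted p = 0.0368). Without the day 1 libraries that lay apart, the change across days passed for NRRL3_11021 in TLL (limma, adjusted p = 0.00712) and for NRRL3_11247 in WT (0.0463).

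Consecutive IDs were found for 10 members in 5 pairs, so that 5.92% of members had a consecutive ID that was also a member, against 2.83% of all genes in the table. NRRL3_09214 and NRRL3_09215, for example, held 5176 and 4300 TPM in WT on day 2, 2037 and 1357 TPM on day 3 and 5894 and 5145 TPM on day 4. The Pearson correlation of log2 values over the 24 libraries ran from 0.860 (NRRL3_11276 with NRRL3_11277) to 0.979 (NRRL3_05141 with NRRL3_05142). These libraries share strain and day, and whether consecutive IDs are neighbours in the genome was not given in the sources used here. Apart from NRRL3_09214 and NRRL3_11276, these IDs were chosen after their values were seen.

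The genes whose 8 group means ranked most like those of NRRL3_01765 were all less abundant. NRRL3_03572 had the same order of groups (Spearman's rho 1.00, Pearson r 0.95 on the log2 scale, 8 groups), with means from 86.4 TPM in TLL on day 1 to 502 TPM in TLL on day 4. NRRL3_01085 (rho 0.99, r 0.74) reached at most 4.99 TPM, and NRRL3_06597 (rho 0.98, r 0.97) ran from 281 to 612 TPM. None of the 3 is a member.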

How the data were processed

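RNA from hyphae of Aspergillus niger was sequenced by the authors in 24 libraries, 3 per strain and day. The deposited values are the authors' TPM per gene. HISAT2, StringTie and Cufflinks are named in the submitters' processing notes, without versions or roles. The name of the deposited table points to another quantifier, RSEM, and which tool gave the values is not settled here. Build and annotation were not given in the sources used here, and none of the table's IDs matched the reference table of 14404 genes. Depth is unknown, so no counting error can be given. 0 columns belonged to no sample.

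Members and lists were chosen with earlier results of these data known. Named members are the 10 highest by mean, the highest in any group or library, the 2 called members without overlap that changed most each way per contrast, the 2 steadiest and 2 widest ranging, those at the limit, and the 3 genes most like NRRL3_01765.

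Tests used limma 3.58.1 (R 4.3.3) on log2(TPM + 1), a pseudocount of 1 TPM, which understates the changes of low genes. Genes reaching 1 TPM in 3 or more libraries were tested (9558). A mean per group was fitted over all 24 libraries with a trended prior, and p-values were adjusted by Benjamini-Hochberg over all genes kept, with a threshold of 0.05. Changes across days and the interaction of strain and day are F tests. The script was tested on simulated data. Shares, ranks and correlations were computed in Python 3.11.15 and figures drawn with matplotlib 3.10.9. Alternatives were other pseudocounts, filters, scalings, moderation and library weights, a replicate block, fits on the compared libraries alone, other choices of members and leaving out libraries. Class sizes and membership without both day 1 libraries that lay apart were added after seeing the data.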

Additional observations from a re-analysis of the deposited data

Results flagged for a closer look

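The strain difference depended on the day, by limma's test of the interaction itself, in 89 of 169 members, against 63.1% of all genes tested. In the fit with all libraries the interaction was thus called less often among members than among all genes. Among the members named here, NRRL3_06779 passed least clearly (limma, adjusted p = 0.0256). The members with a trough in WT day 3 and TLL day 4 among the 10 highest gave limma adjusted p-values of 1.18e-09 (NRRL3_04517), 9.86e-10 (NRRL3_00524), 3.59e-11 (NRRL3_11276) and 6.57e-10 (NRRL3_09214).

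Other members that were lowest at those stages or on day 1 gave limma adjusted p-values of 1.65e-11 (NRRL3_00669), 1.08e-10 (NRRL3_11735), 7.55e-10 (NRRL3_07606), 3.95e-07 (NRRL3_04926), 8.05e-11 (NRRL3_02891), 2.83e-11 (NRRL3_02109), 6.38e-09 (NRRL3_11759) and 2.19e-05 (NRRL3_00134). The members high in WT day 3 and TLL day 4 gave 3.75e-10 (NRRL3_01699), 0.00692 (NRRL3_06518), 0.000341 (NRRL3_10754) and 6.98e-05 (NRRL3_09252), also by limma. The interaction also passed in NRRL3_10215 (limma, adjusted p = 0.000452), NRRL3_10695 (0.000170), NRRL3_03106 (0.00280) and NRRL3_00868 (0.000166). Apart from NRRL3_00868, the members of this paragraph were named for large called changes in contrasts of the same libraries. Their small p-values follow in part from that choice and are no separate support.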

How the results depend on the processing

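The 38 log2 changes for which members were named in a contrast, picked as the largest, reversed under no alternative. Other changes of named members were not checked for reversal. Counts moved, and the balance of higher and lower calls turned at the WT step to day 4 (36 and 29, but 43 and 50 without both day 1 libraries that lay apart, 32 and 35 with median-of-ratios scaling, 46 and 64 with library weights, and 44 and 65 with the compared libraries alone), on day 1 (0 and 16, but 53 and 50 without that pair and 75 and 60 with library weights) and on day 2 (2 and 3, but 8 and 4 with quantile normalization). With the compared libraries alone it also turned on day 3 (55 and 59) and at the WT step to day 2 (28 and 22), and the even split of the TLL step to day 3 tipped either way. With library weights, whose estimation did not converge, the calls between strains were 135, 123, 113 and 123 on days 1 to 4, 149 and 110 at the WT steps to days 3 and 4, 72 and 140 at the same TLL steps, and 168 for the interaction. In fits of the compared libraries alone they were 0, 8 and 114 between strains on days 1 to 3 (limma, with 13 at an unadjusted p under 0.05 on day 1), 50 and 109 at the WT steps to days 2 and 4, and 42 and 121 at the TLL steps to days 3 and 4. Without both day 1 libraries that lay apart they were 103 and 75 between strains on days 1 and 2, 134 at the WT step to day 3, 50 and 112 at the TLL steps to days 3 and 4, and 163 for the interaction. Quantile normalization gave 12 calls between strains on day 2. The members' share in WT on day 1 was 45.8% when members were chosen on the other groups' libraries. Leaving out each library in turn gave 10 to 113, 3 to 33, 49 to 70 and 63 to 95 calls between strains on days 1 to 4. It gave 67 (without WT day 2 replicate 1) to 125, 56 (without WT day 2 replicate 3) to 113, and 57 to 81 calls at the WT steps, and 125 to 148, 16 to 30 and 56 to 92 at the TLL steps. It gave 74 to 154 calls for the interaction, 143 to 164 across days in WT and 152 to 164 in TLL. Shares then ran from 46.8% to 48.0%, 44.3% to 46.1%, 49.7% to 50.3% and 45.4% to 46.6% in WT, and from 47.7% to 52.9%, 38.0% to 39.8%, 42.2% to 43.4% and 46.1% to 47.2% in TLL. Same-numbered libraries did not deviate together (r from -0.645 to 0.441, with 0 of 10 pairs of groups over 0.1 throughout). A replicate block gave 13, 4, 55 and 71 calls between strains on days 1 to 4, 105, 83 and 65 at the WT steps, 130, 18 and 62 at the TLL steps, 82 for the interaction and 149 and 154 across days in WT and TLL. Of 38 changes of named members, 35 kept their call under every alternative. The call of NRRL3_11735 on day 2 was lost under 21, and those of NRRL3_00669 and NRRL3_11735 on day 1 were lost in the fit of the day 1 libraries alone. The log2 difference of NRRL3_00669 on day 1 ran from -1.69 (without TLL day 1 replicate 1) to -3.09 (without replicate 3). The cause of these shifts was not tested.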
